A study of Sus scrofa domesticus with 6 samples.

Results

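The genes described here are 39 interferon-stimulated genes, a list of genes whose transcription is classically raised by interferons, and the members were the rows of the deposited gene table whose symbol matched the list. Of the 39 symbols, 38 had a row and 1 (IFIT5) had none, among 30352 rows with a gene name. All 38 passed the filter on low counts, which left 18197 genes for testing. RNA sequencing was done on small intestine of wild-type Gottingen minipigs aged 6 months, with 2 animals in each of 3 groups and 6 in all. In the IR group the abdomen was exposed to 15 Gy of cobalt gamma radiation. The IR_Pra animals received the same exposure and oral pravastatin, a statin that lowers cholesterol synthesis, at a labelled 40 mg per day for 2 weeks. The third group was labelled control. All tissue was taken on day 14, and each library came from a separate animal. The intestinal segment and the layers of the wall that were sampled are not given in the sources used here.

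Interferons are secreted by cells that sense viral or misplaced nucleic acid and by activated lymphocytes. Their receptors act through JAK kinases and STAT proteins, and a complex that holds STAT2 and IRF9 switches on genes that carry the interferon-stimulated response element. The products block virus entry, RNA translation and budding, tag proteins with ISG15, sense RNA and DNA, and feed back on the pathway. In the gut, epithelial cells respond chiefly to interferon lambda and leukocytes to the type I interferons, and DNA damage is known to raise interferon signalling in cultured cells. The roles given below are those known in human and mouse.

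The libraries held between 48600424 and 73975174 counts. The tissue label was checked against 9 absorptive enterocyte markers, whose summed level was 30252 CPM in IR 1 and 992 CPM in IR 2, 18241 and 19396 CPM in IR_Pra and 28068 and 29982 CPM in control. The IR 1 sum rested on APOA1, an apolipoprotein gene, at 21049 CPM. Of the 9 markers, 6 were lower in both IR libraries than in both controls, as were 30.0% of all genes tested. Among them was the peptidase gene ANPEP. ANPEP had 3546 and 216 CPM in IR, 7593 and 7690 CPM in IR_Pra and 12080.2 and 13810 CPM in control. IR 2 was the lower of the IR libraries, and 10 general epithelial markers summed to 1656 CPM there, against 7441 to 9011 CPM in the other libraries. Leukocyte markers moved with the groups: 10 macrophage markers summed to 3696 and 4049 CPM in IR, 1273 and 1920.2 CPM in IR_Pra and 772 and 781 CPM in control, and 9 B cell markers to 33.4 and 42.4 CPM in IR, 179 and 467 CPM in IR_Pra and 560 and 337 CPM in control. In bulk tissue, fewer cells of a type and less RNA per cell cannot be told apart. CPM values are counts scaled to library size with TMM factors, and log2 fold changes are given with a standard error derived from their test statistic.

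Levels between genes were compared on the authors' FPKM scale, which divides by transcript length. IFITM1 (296 FPKM), IFITM3 (274 FPKM) and IFI6 (215 FPKM) had the highest means over the 6 libraries. A tier between 40.6 and 60.1 FPKM held IRF9, IRF1, ISG15, GBP1, OAS2, IRF7 and OAS1. RSAD2 (2.84 FPKM), MX2 (2.28 FPKM) and OASL (0.389 FPKM) were lowest. The order at the top differed between groups: IFITM1 had 315 and 114 FPKM in IR, 355 and 451 FPKM in IR_Pra and 245 and 296 FPKM in control, and IFI6 had 333 and 543 FPKM in IR, 117 and 114 FPKM in IR_Pra and 43.2 and 139 FPKM in control. IFITM1 led in both control and both IR_Pra libraries, whereas IFITM3 led in IR 1 and IFI6 in IR 2.

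**Figure D1:**
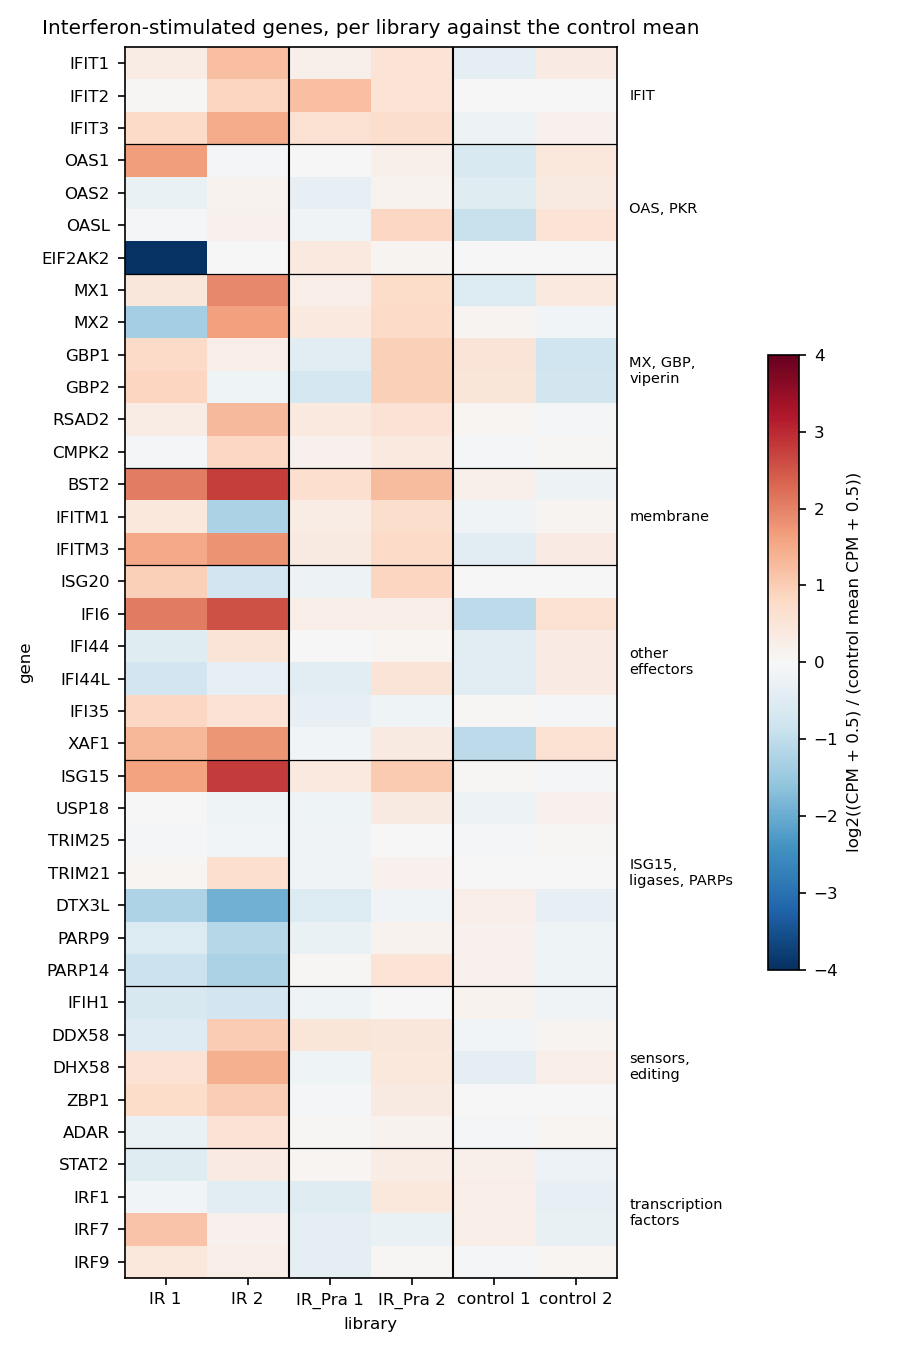
Expression of the 38 genes (rows, ordered by role) in each of the 6 libraries (columns) as log2((CPM + 0.5) / (control mean CPM + 0.5)), red above and blue below the control mean. BST2, IFI6, IFITM3, XAF1 and ISG15 are red in both IR libraries, DTX3L, PARP9, PARP14 and IFIH1 are blue in both, and EIF2AK2 is deep blue in IR 1 alone.

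The comparison of IR with control addressed which of these genes differed 14 days after abdominal irradiation. BST2, which tethers budding viruses to the cell surface, and ISG15, the ubiquitin-like modifier, rose, and no member fell. The count of 2 of 38 past an adjusted p of 0.05 (edgeR's quasi-likelihood test, Benjamini-Hochberg over all genes) is 5.26% of the members, beside 6.06% of all genes tested, of which 3.39% rose and 2.68% fell. The members' share was near this background. The median log2 fold change was 0.45 for the members and 0.03 for all genes, and 26 members had a positive value (68.4%, against 51.3% of all genes). At an unadjusted p under 0.05 there were 13 members, 9 higher and 4 lower (34.2%, against 30.2% of all genes, 16.4% higher and 13.8% lower). The groups did not overlap for 19 members (background 59.8%), of which 14 were higher in IR (background 29.8%) and 5 were lower (background 30.0%). DESeq2 called 8 members (21.1%, against 22.7% of all genes), of which DTX3L and PARP14 were lower and BST2, ISG15, IFITM3, IFI6, IFIT3 and ZBP1 were higher, and limma voom called BST2. When any 1 of the control or IR_Pra libraries was left out, no gene of the whole table passed by edgeR (BST2 adjusted p 0.101 to 0.238, ISG15 0.102 to 0.242), and the count of members was 15 without IR 1 (39.5%, against 28.3% of all genes) and 7 without IR 2 (18.4%, against 17.5%).

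Surface and membrane effectors act at virus entry and exit. BST2 had 22.4 and 36.5 CPM in IR, 8.26 and 12.9 CPM in IR_Pra and 5.78 and 4.25 CPM in control (Entrez 100302088, chromosome 2, 60305306 to 60308295 on Sscrofa11.1). Every IR animal was above every IR_Pra animal, and these were above both controls. BST2 rose in IR against control by 2.55 ± 0.40 on the log2 scale (edgeR adjusted p = 0.0375). Without IR 1 the value was 2.86 and without IR 2 it was 2.16. IFITM3 had 192 and 233 CPM in IR, 85.8 and 115 CPM in IR_Pra and 49.4 and 85.0 CPM in control (Entrez 100518544, chromosome 2, 128658 to 129736). IFITM3 blocks fusion of viruses in endosomes, and its groups were separated with a value of 1.66 ± 0.35 that missed the threshold by edgeR with TMM scaling (adjusted p = 0.0506). IFITM3 passed with DESeq2, with DESeq2's size factors in edgeR and with a filter of 5 CPM. IFITM1 had 295 and 90.8 CPM in IR, 271 and 354 CPM in IR_Pra and 201 and 238 CPM in control (chromosome 2, 124095 to 125495). IFITM1, its neighbour that acts at the plasma membrane, overlapped between IR and control, with IR 2 the lowest library of all and a value of -0.19 ± 0.54, and was higher in both IR_Pra libraries than in both controls.

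IFITM genes lie in a cluster, and 3 further rows there carry an IFITM1-type product name under a LOC symbol and so fall outside the list. They were looked up by product name after the members' values were seen. LOC100519082 (chromosome 2, 152490 to 154732) had 106 and 136 CPM in IR, 49.8 and 56.9 CPM in IR_Pra and 36.1 and 35.2 CPM in control. LOC100626247 (chromosome 2, 133896 to 135271) had 45.5 and 45.1 CPM in IR, 12.2 and 18.6 CPM in IR_Pra and 11.2 and 14.3 CPM in control. LOC102161418 (chromosome 2, 156364 to 157650) had 54.2 and 29.4 CPM in IR, 14.2 and 11.9 CPM in IR_Pra and 10.6 and 5.40 CPM in control. All 3 rose in IR against control without overlap, by 1.76 ± 0.24, 1.83 ± 0.30 and 2.38 ± 0.46 (edgeR adjusted p = 0.0370, 0.0391 and 0.0463). With the length trend described below removed, LOC100519082 passed (adjusted p = 0.0461) and the other 2 did not (0.0549 and 0.0543). IFITM copies are closely similar in sequence, so how the authors' counting divided reads between these rows, IFITM1 and IFITM3 is uncertain.

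ISG15 is a secreted and protein-conjugated modifier. ISG15 had 43.0 and 97.3 CPM in IR, 18.1 and 28.6 CPM in IR_Pra and 14.3 and 13.0 CPM in control (Entrez 100145895, chromosome 6, 63363201 to 63364211). IR 2 was over 2-fold above IR 1, and both were above all other libraries. ISG15 rose in IR against control by 2.36 ± 0.46 (edgeR adjusted p = 0.0463), and the value was 2.83 without IR 1 and 1.65 without IR 2. USP18 had 31.6 and 27.3 CPM in IR, 27.7 and 40.2 CPM in IR_Pra and 26.7 and 35.2 CPM in control. USP18, the protease that removes ISG15 and damps the type I receptor, overlapped between all groups. TRIM25 had 89.3 and 86.4 CPM in IR, 85.0 and 91.8 CPM in IR_Pra and 91.2 and 96.2 CPM in control. TRIM25, a ubiquitin ligase for the sensor RIG-I, was lower in both IR libraries than in both controls, with a value of -0.09 ± 0.21 (adjusted p = 0.793). TRIM21 had 14.3 and 21.8 CPM in IR, 12.1 and 15.3 CPM in IR_Pra and 13.2 and 13.6 CPM in control. TRIM21, a cytosolic antibody receptor and ligase, was higher in IR than in control without overlap (0.42 ± 0.30, adjusted p = 0.387).

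The gene pair PARP9 and DTX3L, whose products form a ligase complex that takes part in DNA damage responses and interferon signalling, and the nearby PARP14, an ADP-ribosyltransferase, lie on chromosome 13. DTX3L had 15.9 and 9.86 CPM in IR, 26.3 and 34.7 CPM in IR_Pra and 46.6 and 30.4 CPM in control (chromosome 13, 137950266 to 137961381). PARP9 had 29.9 and 19.7 CPM in IR, 36.8 and 49.2 CPM in IR_Pra and 49.5 and 39.2 CPM in control (chromosome 13, 137960987 to 138000862). PARP14 had 27.2 and 20.7 CPM in IR, 52.2 and 73.8 CPM in IR_Pra and 56.2 and 44.3 CPM in control (chromosome 13, 137809499 to 137865383). All 3 were lower in both IR libraries than in any other library, with log2 fold changes against control of -1.58 ± 0.36, -0.84 ± 0.31 and -1.07 ± 0.29. None passed by edgeR in this comparison (adjusted p = 0.0589, 0.137 and 0.0771), whereas DESeq2 called DTX3L and PARP14. The annotated spans of DTX3L and PARP9 overlap by 395 bases, so reads there could not be assigned to 1 of the pair without strand.

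**Figure D2:**
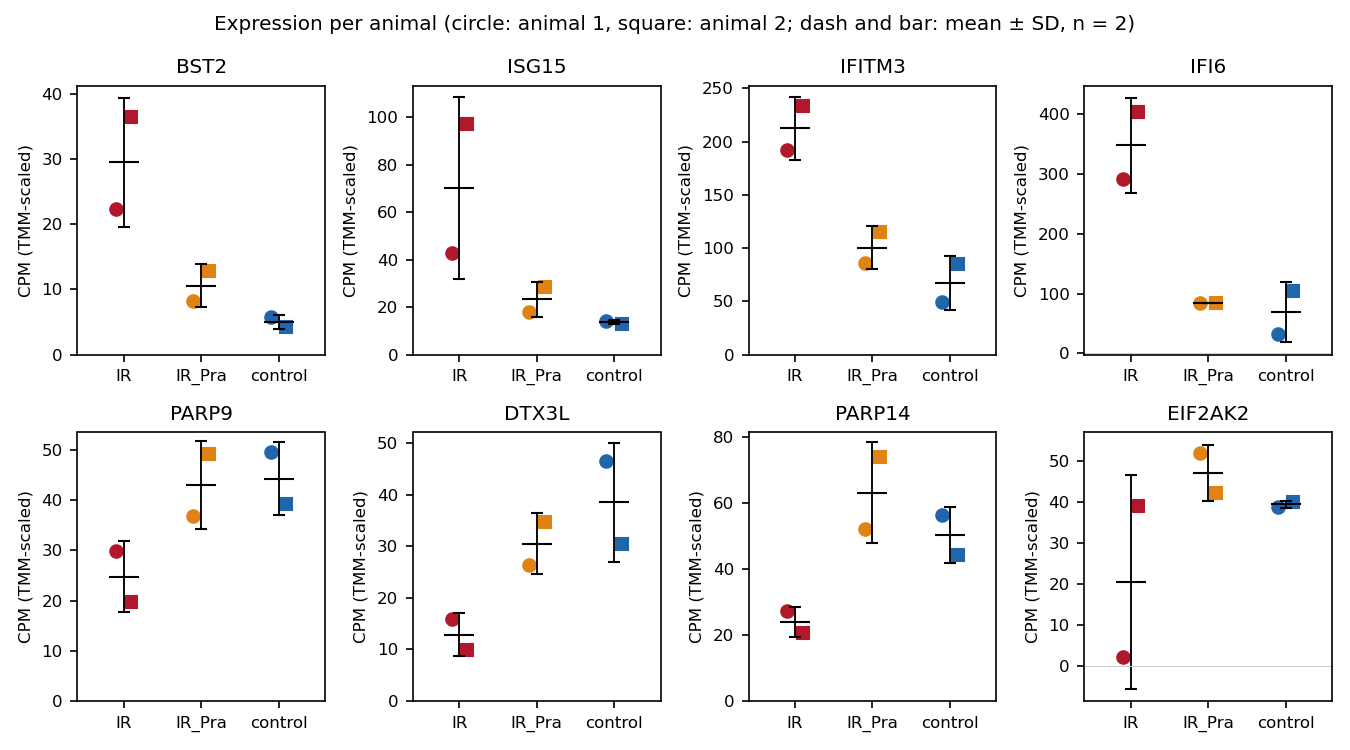
TMM-scaled CPM per animal for 8 genes (y axis) in the IR, IR_Pra and control groups (x axis), with circles for animal 1, squares for animal 2, and the mean ± SD (n = 2). BST2, ISG15, IFITM3 and IFI6 are highest in both IR animals, the PARP9, DTX3L and PARP14 values are lowest there, and EIF2AK2 is 2.1 CPM in IR 1 and 39.0 CPM in IR 2.

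The IFIT proteins bind foreign RNA caps and block translation. IFIT3 had 23.1 and 38.7 CPM in IR, 21.1 and 22.2 CPM in IR_Pra and 11.6 and 15.4 CPM in control. IFIT3 was higher in IR and in IR_Pra than in control without overlap (IR against control 1.20 ± 0.33, edgeR adjusted p = 0.0777). IFIT2 had 13.1 and 23.3 CPM in IR, 29.5 and 18.8 CPM in IR_Pra and 12.5 and 12.8 CPM in control. IFIT2 was highest in IR_Pra 1, and both irradiated groups lay above control in CPM, IR 1 only narrowly. On the FPKM scale IR 1 (3.07 FPKM) was below both controls (3.73 and 3.74 FPKM). IFIT1 had 18.4 and 34.2 CPM in IR, 16.9 and 21.9 CPM in IR_Pra and 11 and 18.5 CPM in control. IFIT1 overlapped between IR and control. The 3 genes lie next to each other on chromosome 14 between 101193421 and 101249486. A neighbouring row, LOC100151816, carries the IFIT5 product name and had 3.66 and 13.2 CPM in IR, 8.05 and 6.34 CPM in IR_Pra and 3.31 and 5.19 CPM in control (0.99 ± 0.63 in IR against control, adjusted p = 0.331).

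The OAS enzymes sense double-stranded RNA and make a nucleotide messenger, and EIF2AK2 encodes PKR, a kinase that stops translation on double-stranded RNA. OAS1 had 162 and 48.3 CPM in IR, 50.8 and 58.8 CPM in IR_Pra and 33.3 and 68.8 CPM in control. OAS1 was high in IR 1 alone. OAS2 had 156 and 208 CPM in IR, 149 and 210.4 CPM in IR_Pra and 137 and 242 CPM in control. OAS2 overlapped between all groups. OASL had 0.372 and 0.541 CPM in IR, 0.328 and 1.13 CPM in IR_Pra and 0 and 0.841 CPM in control. OASL was near 0 throughout, with 0 counts in control 1 and 53 in control 2. EIF2AK2 had 2.1 and 39.0 CPM in IR, 52.0 and 42.2 CPM in IR_Pra and 38.9 and 40.0 CPM in control. EIF2AK2 was low in 1 library, IR 1, which held 113 counts, and the other IR library lay within the control range. The transcript length implied by its count and FPKM was 2342 nt in IR 1 and between 10542 and 11298 nt in the other libraries. On the FPKM scale EIF2AK2 had 0.776 and 3.64 FPKM in IR, 5.16 and 3.90 FPKM in IR_Pra and 3.68 and 3.73 FPKM in control. IFIT2 also had an implied length that varied, from 2190 to 3679 nt, whereas the largest ratio between libraries for the other 36 members was 1.08.

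Of the dynamin-like and guanylate-binding GTPases and the enzymes RSAD2 and CMPK2, all 6 members had a positive value in IR against control and none passed by edgeR, DESeq2 or limma voom, with 0 at an unadjusted p under 0.05. MX1 had 78.5 and 218 CPM in IR, 68.6 and 95.0 CPM in IR_Pra and 38.9 and 75.6 CPM in control. MX1, a GTPase that traps incoming viral nucleocapsids, was higher in IR without overlap (1.37 ± 0.56, adjusted p = 0.168), mainly in IR 2. MX2 had 0.947 and 11 CPM in IR, 4.42 and 5.80 CPM in IR_Pra and 3.51 and 2.97 CPM in control. MX2 was the highest of the 6 libraries in IR 2 and the lowest in IR 1. RSAD2 had 7.36 and 15.3 CPM in IR, 7.74 and 9.04 CPM in IR_Pra and 6.18 and 5.52 CPM in control. RSAD2, which encodes viperin and makes a chain-terminating nucleotide, was higher in IR without overlap. CMPK2 had 15.9 and 30.5 CPM in IR, 19.1 and 22.5 CPM in IR_Pra and 16.2 and 17.5 CPM in control. CMPK2, its neighbour on chromosome 3 and a nucleotide kinase, overlapped between IR and control. GBP1 had 226 and 162 CPM in IR, 99.9 and 258 CPM in IR_Pra and 191 and 76.7 CPM in control. GBP2 had 46.5 and 22.5 CPM in IR, 15.5 and 49.7 CPM in IR_Pra and 35.4 and 15.1 CPM in control. The GBP genes, which attack the vacuoles of intracellular microbes and respond strongly to interferon gamma, overlapped between all groups and differed over 2-fold between the control animals. Further GBP-type rows occur on chromosome 4 under LOC symbols, so their counts are also uncertain.

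Of the 6 other effectors none passed the threshold by edgeR in IR against control, and DESeq2 called IFI6. An unadjusted p under 0.05 was found for 3 (background 30.2%). IFI6 had 292 and 404 CPM in IR, 83.8 and 83.7 CPM in IR_Pra and 33.1 and 105 CPM in control. IFI6, a small membrane protein that restrains flavivirus replication, was at least 292 CPM in both IR libraries and at most 104.6 CPM elsewhere, with a value of 2.34 ± 0.56 that did not pass (adjusted p = 0.0615). XAF1 had 13.6 and 18.9 CPM in IR, 4.69 and 6.73 CPM in IR_Pra and 2.23 and 8.03 CPM in control. XAF1, a pro-apoptotic partner of XIAP, was higher in IR without overlap (1.66 ± 0.62, adjusted p = 0.141). IFI35 had 51.4 and 42.9 CPM in IR, 22.6 and 25.5 CPM in IR_Pra and 29.6 and 27.5 CPM in control. IFI35 was higher in IR than in control without overlap (0.72 ± 0.23, adjusted p = 0.1), and the IR_Pra animals were below both controls. ISG20 had 28.5 and 8.27 CPM in IR, 12.4 and 26.8 CPM in IR_Pra and 14.1 and 14.8 CPM in control. ISG20, an RNA exonuclease, overlapped between all groups. IFI44 had 8.27 and 17.0 CPM in IR, 12.1 and 12.5 CPM in IR_Pra and 8.81 and 14.9 CPM in control. IFI44L had 35.0 and 47.7 CPM in IR, 43.9 and 86.0 CPM in IR_Pra and 44.9 and 75.0 CPM in control. The adjacent genes IFI44 and IFI44L overlapped between all groups.

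Of the 5 sensors and editing genes none passed by edgeR in IR against control, and DESeq2 called ZBP1. An unadjusted p under 0.05 was found for 3 (background 30.2%). DHX58 had 32.8 and 58.7 CPM in IR, 19.1 and 29.6 CPM in IR_Pra and 17.0 and 26.5 CPM in control. DHX58, which encodes the RIG-I relative LGP2, was higher in IR without overlap (1.07 ± 0.41, adjusted p = 0.149). ZBP1 had 12.4 and 14.9 CPM in IR, 6.84 and 9.57 CPM in IR_Pra and 7.17 and 7.45 CPM in control. ZBP1, a sensor of Z-form nucleic acid that can trigger necroptosis, was also higher without overlap (0.90 ± 0.30, adjusted p = 0.114). IFIH1 had 16.1 and 14.8 CPM in IR, 22.5 and 24.8 CPM in IR_Pra and 28 and 22.8 CPM in control. IFIH1, which encodes MDA5, was lower in both IR animals than in any other animal (-0.72 ± 0.24, adjusted p = 0.114). DDX58 had 14.0 and 42.1 CPM in IR, 28.8 and 27.8 CPM in IR_Pra and 18.8 and 21.8 CPM in control. DDX58, which encodes RIG-I, was both lowest and highest in the IR group. ADAR had 58.8 and 105 CPM in IR, 72.6 and 77.3 CPM in IR_Pra and 66.9 and 74.4 CPM in control. ADAR, the RNA editing enzyme that masks self RNA from MDA5, likewise spanned the other groups.

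Of the 4 transcription factors none passed in IR against control by edgeR, DESeq2 or limma voom, and 0 had an unadjusted p under 0.05. STAT2 had 70.2 and 122 CPM in IR, 102 and 120.2 CPM in IR_Pra and 111 and 83.0 CPM in control. STAT2, the signal transducer of type I and lambda receptors, overlapped between all groups. IRF9 had 117 and 104 CPM in IR, 67.8 and 90.7 CPM in IR_Pra and 81.8 and 92.5 CPM in control. IRF9, its DNA-binding partner, was higher in IR than in control without overlap (0.34 ± 0.25, adjusted p = 0.39). IRF7 had 162 and 83.4 CPM in IR, 56.5 and 61.7 CPM in IR_Pra and 87.8 and 59.6 CPM in control. IRF7, which amplifies interferon production, was highest in IR 1, and both IR libraries were above both IR_Pra libraries. IRF1 had 124 and 98.8 CPM in IR, 96.4 and 178 CPM in IR_Pra and 162 and 105 CPM in control. IRF1, the interferon gamma-induced activator, overlapped between all groups.

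**Figure D3:**
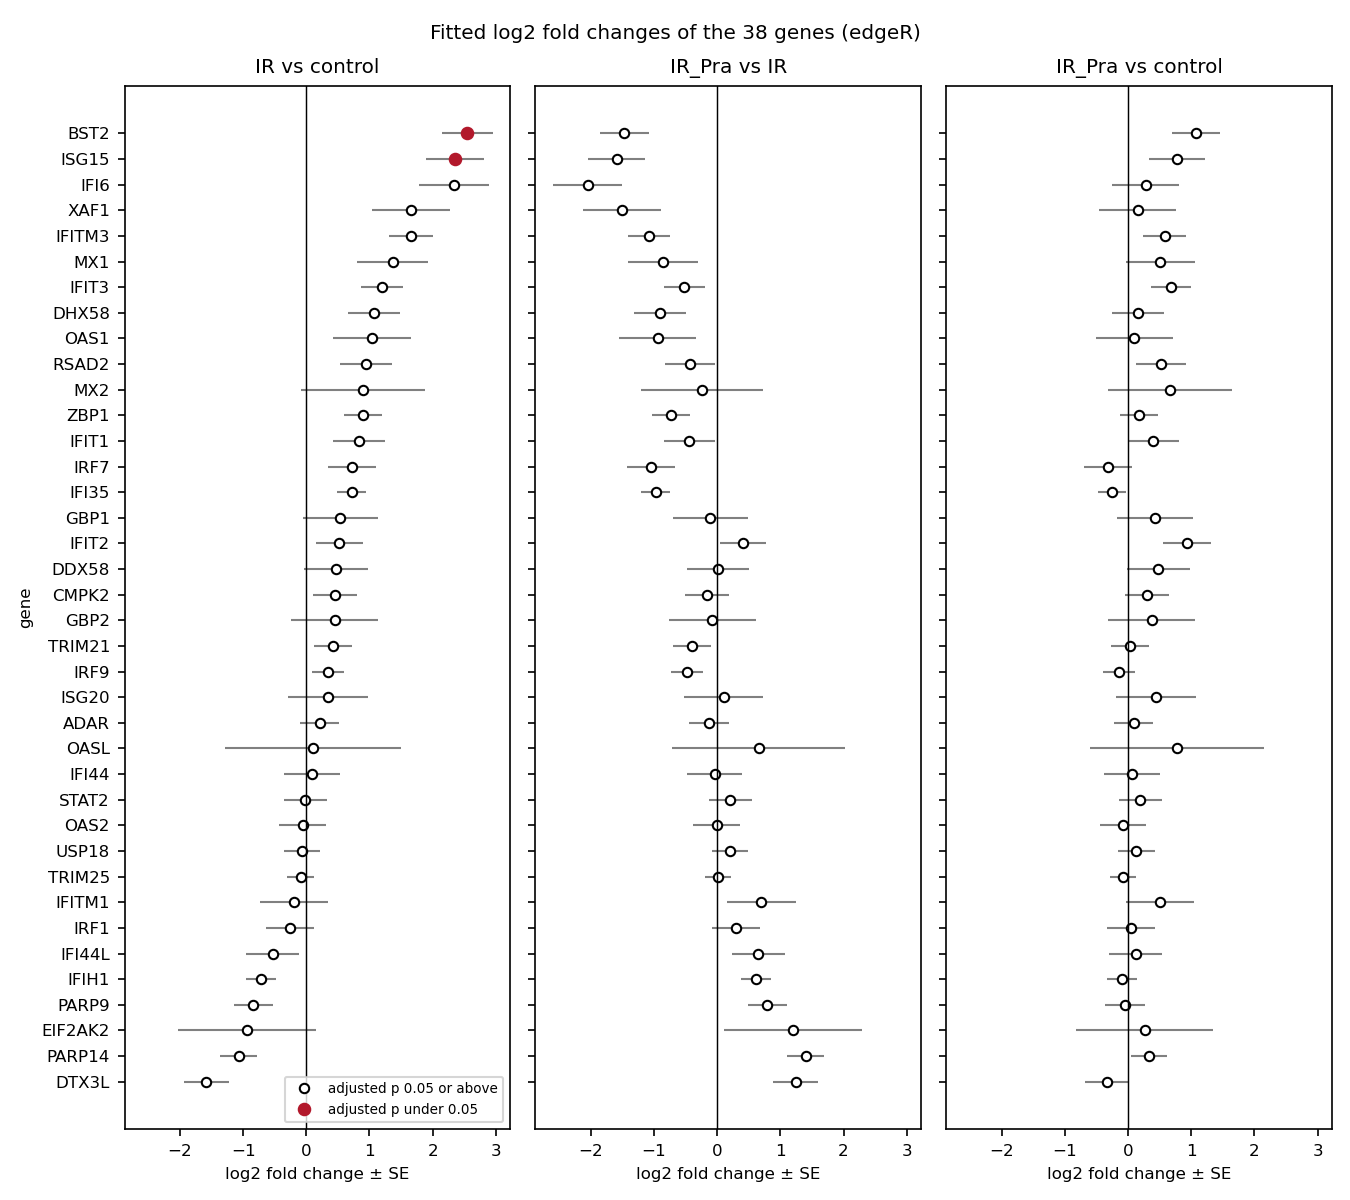
Fitted log2 fold changes with standard errors (x axis) of the 38 genes (y axis, ordered by IR vs control) in the 3 comparisons, with filled points for an adjusted p under 0.05. Only BST2 (2.55) and ISG15 (2.36) in IR vs control are filled.

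The comparison of IR_Pra with IR addressed whether these genes differed between irradiated animals with and without pravastatin. No member passed the threshold by edgeR (0 of 38, background 0.0055% or 1 gene), and 11 had an unadjusted p under 0.05, 4 higher and 7 lower in IR_Pra (background 24.5%, 11.7% higher and 12.8% lower). At an adjusted p under 0.10 there were 2 members, PARP14 and IFI35 (background 7.3%). Without IR 1 edgeR called 7 members (18.4%, against 19.7% of all genes) and without IR 2 it called 4 (10.5%, against 12.4%). limma voom called 0 members. DESeq2 called 7 members, 2 higher and 5 lower, which is 18.4% of them, against 15.8% of all genes (2871). The smallest adjusted p by edgeR belonged to PARP14 at 1.40 ± 0.29 (0.0869), with 52.2 and 73.8 CPM in IR_Pra against 27.2 and 20.7 CPM in IR. IFI35 followed at -0.97 ± 0.23 (0.0940), with 22.6 and 25.5 CPM in IR_Pra against 51.4 and 42.9 CPM in IR. BST2 was at -1.47 ± 0.39 (0.106), with 8.26 and 12.9 CPM in IR_Pra against 22.4 and 36.5 CPM in IR. The groups did not overlap for 16 members (background 53.9%), 5 higher in IR_Pra (background 27.3%) and 11 lower (background 26.6%). The 11 were IFIT3, BST2, IFITM3, IFI6, IFI35, XAF1, ISG15, DHX58, ZBP1, IRF7 and IRF9, and the 5 were EIF2AK2, DTX3L, PARP9, PARP14 and IFIH1. Positive values were found for 15 members (39.5%, against 49.1% of all genes), and the median was -0.12 over members and -0.02 over all genes. With library size as the only scaling the medians were 0.03 and 0.14.

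The comparison of IR_Pra with control set the treated irradiated animals against animals labelled control. No member passed by edgeR, DESeq2 or limma voom, and 2 had an unadjusted p under 0.05, both higher (background 3.42%, 2.4% higher). With edgeR no gene of the table passed (background 0.0%), and DESeq2 called 71. The members with the smallest p were BST2 at 1.08 ± 0.38, with 8.26 and 12.9 CPM in IR_Pra against 5.78 and 4.25 CPM in control, IFIT2 at 0.93 ± 0.38 and IFIT3 at 0.68 ± 0.32. Their edgeR adjusted p all rounded to 1.0. Positive values were found for 30 of 38 members (78.9%, against 50.6% of all genes), with a median of 0.22 beside 0.0 for all genes. Without IR_Pra 2 the members' median was -0.06, and without IR_Pra 1 it was 0.40. The groups did not overlap for 12 members (background 40.8%), of which 11 were higher (background 20.8%) and IFI35 was lower. The IR group is used in the first 2 comparisons and the control group in the first and the third, so these results share samples.

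The 2 IR animals differed from each other in many members. Of 38 members, 10 differed by over 2-fold between IR 1 and IR 2 (26.3%, against 23.9% of all genes). EIF2AK2, MX2, DDX58, MX1, ISG15 and RSAD2 were lower in IR 1, and OAS1, ISG20, IFITM1 and GBP2 were higher there. Against the control mean, the members' median log2 ratio was 0.19 in IR 1, 0.42 in IR 2, -0.05 in IR_Pra 1 and 0.41 in IR_Pra 2, and that of all genes lay between -0.04 and 0.0. The summed level of the members was 2547 CPM in IR 1, 2676 CPM in IR 2, 1811 CPM in IR_Pra 1, 2492 CPM in IR_Pra 2, 1802 CPM in control 1 and 1929.5 CPM in control 2.

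The members' fold changes went with transcript length. Among the 19 members with the shortest transcripts, from 458 to 2168 nt, 15 had a positive value in IR against control, with a median of 0.72. Among the 19 longest, 11 did, with a median of 0.45. The 5581 genes of the whole table that were as short had a median of 0.32, and the 12166 longer genes had -0.11. Across genes, which are not independent replicates, Spearman's rho between length and the ratio to control was -0.68 over members and -0.39 over all genes in IR 1. In IR 2 it was -0.34 and -0.06. The values were -0.05 and 0.13 in IR_Pra 1, -0.3 and -0.16 in IR_Pra 2, 0.32 and 0.02 in control 1 and -0.32 and -0.02 in control 2. Over members, IR 2 was thus near IR_Pra 2 and control 2. The 2 control libraries make up the mean they are set against, so their values mirror each other by construction. Control 2 is therefore not an independent yardstick for IR 2. BST2 (559 nt), ISG15 (637 nt), IFITM3 (458 nt) and IFI6 (764 nt) were among the shortest members, and DTX3L (5290 nt) and PARP14 (6145 nt) among the longest. With a smooth length trend removed from each library, BST2 was at 2.18 ± 0.49 (edgeR adjusted p = 0.0601) and ISG15 at 2.03 ± 0.58 (0.0876), and 0 of 38 members passed, with 8 at an unadjusted p under 0.05.

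**Figure D4:**
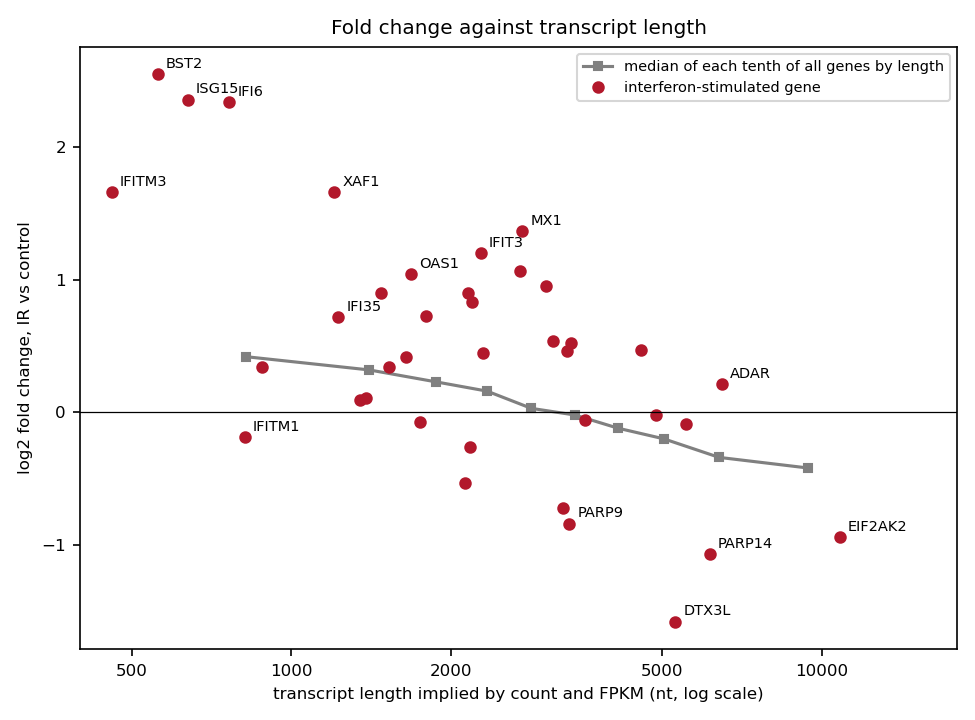
Log2 fold change in IR vs control (y axis) against the transcript length implied by count and FPKM (x axis, nt, log scale) for the 38 genes (red), with medians of all genes in 10 equal bins of length (grey). The grey line is at -0.42 in the bin with the longest transcripts and at 0.42 in the bin with the shortest, and BST2 (2.55), ISG15 (2.36) and IFI6 (2.34) lie above the line at its short end.

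Other genes of the interferon pathway were read from lists of ligands, receptors, kinases, sensors, negative regulators and further induced genes. Of 131 listed genes 110 had a row and 97 were tested. Of these 97, 2 rose and 6 fell in IR against control (8.25%, beside 6.06% of all genes), with a median of -0.07. In IR_Pra against IR and against control, 0 of 97 passed by edgeR. At an unadjusted p under 0.05 there were 19 (19.6%, against 24.5% of all genes) and 2 (2.06%, against 3.42%). DESeq2 called 16 of the 97 in IR_Pra against IR (background 15.8%) and 0 in IR_Pra against control (background 0.39%). limma voom called 0 in both.

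Ligand transcripts were nearly absent from the counts. Of 43 rows whose product is an interferon, 41 had 0 counts in every library, including IFNB1. A count of 0 allows up to 3 counts in a library, or 0.0406 to 0.0617 CPM without TMM factors, for counting error only. Many of these rows are numbered copies of interferon alpha, delta or omega. How reads shared between copies were counted is not stated, so the counts of 0 in those rows are uncertain. Interferon gamma (IFNG) had 4 and 11 counts in IR_Pra and 0 in the IR and control libraries. Interferon epsilon (IFNE), a type I interferon made by epithelia, mainly of the reproductive tract, had the most counts of these rows. IFNE had 1.39 and 0.687 CPM in IR, 9.27 and 4.48 CPM in IR_Pra and 8.54 and 7.37 CPM in control. IFNE fell in IR against control by 2.94 ± 0.55 (edgeR adjusted p = 0.0444), and its value in IR_Pra against IR was 2.73 ± 0.54 (adjusted p = 0.0832). Its implied transcript length was 1154 nt in IR 2, which held 52 counts, and 4994 to 5697 nt in the other libraries. On the FPKM scale IFNE had 0.232 and 0.609 FPKM in IR, 1.74 and 0.936 FPKM in IR_Pra and 1.49 and 1.33 FPKM in control.

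Receptor genes had 0 of 6 past the threshold in IR against control by edgeR, DESeq2 or limma voom. At an unadjusted p under 0.05 there was 1, IL10RB (background 30.2%). IL10RB had 37.6 and 11.4 CPM in IR, 36.7 and 40.9 CPM in IR_Pra and 59.3 and 65.5 CPM in control. IL10RB, a chain shared by the lambda and interleukin-10 receptors, had -1.35 ± 0.53 in IR against control (adjusted p = 0.158). Among the kinases and STATs 1 of 5 passed. JAK2 had 9.71 and 14.3 CPM in IR, 26.2 and 29.8 CPM in IR_Pra and 36.0 and 31.4 CPM in control. JAK2, a kinase of the interferon gamma receptor, fell by 1.49 ± 0.28 in IR against control (edgeR adjusted p = 0.0454). Its implied transcript length was 8839 nt in IR 1 and 5074 to 5897 nt in the other libraries.

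Nucleic acid sensing genes had 0 of 16 past the threshold in IR against control by edgeR and by limma voom. There were 4 at an unadjusted p under 0.05 (25.0%, background 30.2%) and 3 called by DESeq2 (background 22.7%). The smallest p belonged to TMEM173. TMEM173 had 16.3 and 22.4 CPM in IR, 11.8 and 13.0 CPM in IR_Pra and 10.8 and 7.97 CPM in control. TMEM173 encodes STING, the adaptor of cytosolic DNA sensing, and had 1.05 ± 0.30 in IR against control (adjusted p = 0.0852). UNC93B1, which carries Toll-like receptors to endosomes, followed at 1.07 ± 0.34 (adjusted p = 0.106). Of 13 negative regulators, 1 rose and 1 fell. RNASEH2C had 74.2 and 72.3 CPM in IR, 23.5 and 28.8 CPM in IR_Pra and 31.1 and 26.3 CPM in control. RNASEH2C, a subunit of the enzyme that removes ribonucleotides from DNA, rose by 1.35 ± 0.23 (adjusted p = 0.0408). PIAS1 had 14.8 and 15.5 CPM in IR, 38.2 and 35.0 CPM in IR_Pra and 36.9 and 35.9 CPM in control. PIAS1, an inhibitor of STAT signalling, fell by 1.27 ± 0.21 (adjusted p = 0.0399).

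Among 36 further induced genes none rose in IR against control by edgeR, and those that fell included TNFSF10 and TRIM14. TNFSF10 had 30.4 and 34.7 CPM in IR, 107 and 108 CPM in IR_Pra and 107 and 127 CPM in control. TNFSF10, the death ligand TRAIL, fell by 1.85 ± 0.23 (adjusted p = 0.0364). TRIM14 had 38.2 and 40.9 CPM in IR, 71.9 and 69.3 CPM in IR_Pra and 81.9 and 87.1 CPM in control. TRIM14, an adaptor of mitochondrial antiviral signalling, fell by 1.09 ± 0.21 (adjusted p = 0.0451). The IR animals lay below all others for both genes. Among 21 interferon gamma targets 1 rose. FGL2 had 145 and 216 CPM in IR, 108 and 83.7 CPM in IR_Pra and 50 and 66.4 CPM in control. FGL2, a secreted immunoregulatory protein, rose by 1.63 ± 0.32 (adjusted p = 0.0461). With the length trend removed, TNFSF10, JAK2 and FGL2 passed the threshold, and PIAS1, RNASEH2C, IFNE and TRIM14 did not (adjusted p 0.0594 to 0.12). As for the members, none of these calls, nor those of the IFITM copies, was made when any 1 of the control or IR_Pra libraries was left out.

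Markers of several cell types moved with BST2 and ISG15. All 10 macrophage markers were higher in both IR libraries than in both controls, and 9 of them passed the threshold by edgeR. Over all genes tested, 29.8% were higher and 30.0% lower in IR without overlap, and 3.39% passed as higher. The 7 smooth muscle markers summed to 31750.4 and 66834 CPM in IR, 19382 and 13412 CPM in IR_Pra and 5692 and 11685 CPM in control, and all 7 were higher in IR than in control without overlap. The 8 fibroblast markers summed to 8425 and 25125 CPM in IR, 7092 and 4816 CPM in IR_Pra and 2007 and 3393 CPM in control, with 7 higher without overlap and PDGFRA lower. IR 2 was above IR 1 in both sums, as it was for ISG15. The 7 neutrophil markers summed to 217 and 273 CPM in IR, 66.7 and 113 CPM in IR_Pra and 63.9 and 51.1 CPM in control. Of these 5 were higher without overlap, and MMP8 was at 0 in every library. Most of the sum was FCGR3A, whose row was used for FCGR3B. Without FCGR3A it was 17.1 and 49.2 CPM in IR, 8.1 and 11.9 CPM in IR_Pra and 6.9 and 2.8 CPM in control. Dendritic cell markers summed to 94.7 and 103 CPM in IR, 71.2 and 84.7 CPM in IR_Pra and 70.7 and 42.0 CPM in control, with CLEC9A at 0 in 4 libraries. Of these 8 markers, 4 were higher in IR than in control without overlap, and CCR7 was lower. The most abundant was IL3RA. Without IL3RA the sum was 61.4 and 66.3 CPM in IR and 59.3 and 64.8 CPM in IR_Pra, which overlapped. In control it was 54.4 and 28.9 CPM. Plasma cell markers did not move together: of 8, JCHAIN, MZB1 and TNFRSF17 were higher in IR than in control without overlap, and PRDM1 and POU2AF1 were lower. Their sum was 1587 and 2152 CPM in IR, 1648 and 1158.5 CPM in IR_Pra and 656 and 838 CPM in control, and without JCHAIN it was 487 and 312 CPM in IR, 476 and 429 CPM in IR_Pra and 421 and 355 CPM in control. The 9 B cell and 10 T cell markers were all lower in both IR libraries than in both controls. Of 8 endothelial markers, 5 were higher in IR than in control without overlap. Of 9 cytotoxic and NK cell markers, 6 were lower without overlap and 1 was higher. The part of these cell types in the differences of BST2 and ISG15 was not tested.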

How the data were processed

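RNA sequencing of small intestine from 6 minipigs gave 1 whole-number count and 1 FPKM value per gene and library. Per the submitters' processing notes, the tools were bcl2fastq 2.20.0, Trimmomatic, HISAT2 2.1.0 and StringTie 2.1.3b, and the builds named were Sscrofa11.1 and GRCh38. How the deposited counts were made, the library's strand setting and the role of the human build are not stated in any label, note or header used here. The FPKM values deposited by the authors were scaled to length and library size, without the TMM factors. They were used for levels between genes, for implied lengths (count divided by FPKM and total) and for 1 alternative test. For IFITM1, IFI6, IFIT2, EIF2AK2 and IFNE they were also set side by side between libraries. Rows without a gene name (24, 0.00906% to 0.0385% of counts) were left out.

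The deposited counts were tested with edgeR 4.0.16 (R 4.3.3): TMM factors (0.866 to 1.07), filterByExpr by group, a quasi-likelihood F test over all 6 libraries with 3 residual degrees of freedom, and Benjamini-Hochberg adjustment over 18197 genes at 0.05. The common biological coefficient of variation was 0.431. Each edgeR standard error was derived as the absolute log2 fold change divided by the square root of F. It thus carries the same information as the p-value. limma 3.58.1, DESeq2 1.42.0, other scalings, filters and fits were alternatives. The script was run on simulated data with less spread than these data, so that run does not measure power or error rates here. The animals are separate, so p-values measure the spread between animals, and replicate numbers pair none of them.

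Members and lists were chosen with earlier results of these data known. Entrez IDs placed all 38 members, on 14 chromosomes, in RefSeq's Sscrofa11.1 annotation. Every member is given, with full statistics for those past the threshold and the 3 smallest p in each comparison. Of each pathway list, genes past the threshold are named, or else those with the smallest p, and some results of these lists are not reported here.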

Additional observations from a re-analysis of the deposited data

How the results depend on the processing

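Each alternative refitted all genes that passed its filter. Fold changes were compared between the fits for only some of the named genes, and none of those reversed. IFITM1, MX2, DDX58 and ISG20 were not among the genes compared, so the absence of reversals does not cover them. Their IR libraries lay on opposite sides of the control mean. The log2 ratios to that mean in IR 1 and IR 2 were 0.43 and -1.27 for IFITM1 and -1.37 and 1.63 for MX2. They were -0.52 and 1.03 for DDX58 and 0.95 and -0.77 for ISG20. The members' median did change sign: in IR_Pra against control it was -0.06 without IR_Pra 2 (0.22 reported), and in IR_Pra against IR it was 0.03 with library size alone, 0.06 with limma on log2(FPKM + 1) and 0.09 without IR 2 (-0.12 reported). For IR against control, 2 members passed in the fit reported. The count was 8 with DESeq2 (6 higher, 2 lower), 7 at an adjusted p under 0.10, 1 without a filter, with limma voom and with the legacy fit, and 0 with library size alone, with limma on log2(FPKM + 1), with the length trend removed and with only the 4 libraries of the comparison. For IR_Pra against IR the count was 7 with DESeq2 and 2 at an adjusted p under 0.10, against 0 reported. For IR_Pra against control it was 0 under every alternative. Leaving out 1 library gave 0 to 15 members for IR against control, 0 to 7 for IR_Pra against IR and 0 for IR_Pra against control. The causes of these differences were not tested. DESeq2 called 4130 genes in all for IR against control, edgeR 1103. Scaling by library size alone moved the median of all genes to 0.14 in IR_Pra against IR. Depth limits OASL most, which had 0 to 60 counts in a library.

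With the replicate number as a block, 0 members and 0 genes passed in IR against control, 0 members also with the length trend removed and the block, and 0 in the other comparisons. The numbers name separate animals, and deviations of same-numbered animals correlated at 0.0812 (IR and control), -0.0909 (IR_Pra and IR) and -0.11 (IR_Pra and control).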
